A study of Mus musculus with 54 samples.

Results

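The zinc finger gene clusters of distal mouse chromosome 4 held 435 of the 113737 accessible regions (peaks) listed for OCT4-AID embryonic stem (ES) cells. Members were all peaks of chromosome 4 with a centre from 144900000 to 147800000 in the genome build GRCm38, a stretch of 2.9 Mb that was selected on the measured peak positions because it was dense in peaks. The number and the density of members are therefore descriptions. The 435 members compare with a median of 119 peaks and a highest count of 385 over the 907 other windows of 2.9 Mb in the genome. The outermost members were a 645 bp peak in an intron of Dhrs3, 4.14 kb inside the first edge, and an 865 bp peak in an intron of Zfp984, chr4:147794734-147795598. The nearest peaks left out were 439 bp wide at 1.43 kb before the first edge and 224 bp wide at 3.70 kb after the last edge. Peak density did not step at either edge, with 12 peaks in the 100 kb before and 10 in the first 100 kb, and 13 in the last 100 kb and 9 in the 100 kb after.

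The list came from ATAC-seq, in which the transposase Tn5 cuts and tags open chromatin. The cells were ZHBTc4 mouse ES cells, in which a Tet-Off promoter controls Pou5f1, the gene for OCT4, so that doxycycline (dox) shuts it off. All 54 samples carried the ubiquitin ligase Tir1, an mCherry-OCT4-AID fusion at low level from a PGK promoter, which indole-3-acetic acid (IAA) causes to be degraded, and the cell cycle reporter YPet-MD. All 24 groups also received dox. The 22 samples of the cell cycle set had 26 hr of dox and 0 or 2 hr of IAA and were sorted into EG1, LG1, S and SG2 cells, the 16 samples of the washout set had 31 hr of dox and 0 or 2.5 hr of IAA followed by 4.5 hr without it in the same phases, and the 16 unsorted samples of the time course had 34 hr of dox and 0, 0.5, 1, 2, 3, 4, 6 or 10 hr of IAA. Only 1 merged list of positions was analysed, so no value below belongs to a sample or a treatment, there are no replicates, and no test was made. Intervals in parentheses are 95% intervals that cover the counting of peaks only.

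Zinc finger proteins of this kind bind DNA through rows of small finger domains folded around zinc, and many carry a KRAB domain that recruits the co-repressor TRIM28 (KAP1) to silence transposable elements. Their genes lie in clusters that grew by repeated duplication, so neighbouring genes, pseudogenes and the sequence between them are near copies of each other. Such copies are hard to assemble and hard to cover with short reads, because a read that matches several places equally well cannot be assigned to one of them.

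Peaks were grouped by sequence. Those that aligned at 90% identity or more over at least 80% of the shorter peak were joined into families, and the representative of a family was the member that most other members covered. The families were numbered by size. Sequences of families 1, 2 and 7 are shown because they lay at the start, towards the far end and upstream of the duplicated genes, and capitals mark bases that differ from, or are inserted relative to, the first sequence of each group. All are from the RefSeq GRCm38 genome.

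Family 1 lay largely at gene starts. The first sequence is the part of the Zfp982 peak that lies before the annotated start, and the copies before the Zfp989 start and upstream of Zfp986 were the most and the least alike among the peaks that cover the representative and whose aligned bases lie outside annotated exons, with 6 and 9 substituted bases in 69.
Zfp982 start, chr4:147492338-147492416, + strand: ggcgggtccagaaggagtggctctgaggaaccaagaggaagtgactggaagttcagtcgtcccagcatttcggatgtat
Zfp989 start, chr4:146971897-146971965, + strand: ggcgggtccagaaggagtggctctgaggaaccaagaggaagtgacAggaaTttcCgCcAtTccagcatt
upstream of Zfp986, chr4:145864021-145864089, + strand: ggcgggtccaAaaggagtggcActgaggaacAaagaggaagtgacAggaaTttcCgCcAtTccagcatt

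Family 2 lay mostly towards the 3′ ends of the genes. The sequence is the middle 280 bases of its representative in Zfp990, with the 2 other peaks that cover it, in the pseudogene Gm13147, which had 14 substituted and 6 inserted bases, and in Zfp982, which had 18 substituted and 10 inserted bases. Copies without a peak, up to 94.4% identical to the whole representative, are not shown.
Zfp990 intron, chr4:145533544-145533823, + strand: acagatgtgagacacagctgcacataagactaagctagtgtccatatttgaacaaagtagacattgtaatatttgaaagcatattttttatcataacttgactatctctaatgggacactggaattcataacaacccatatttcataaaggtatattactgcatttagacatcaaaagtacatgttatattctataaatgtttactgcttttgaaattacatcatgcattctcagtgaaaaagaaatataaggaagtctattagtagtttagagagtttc
Gm13147 intron, chr4:147255983-147256268, + strand: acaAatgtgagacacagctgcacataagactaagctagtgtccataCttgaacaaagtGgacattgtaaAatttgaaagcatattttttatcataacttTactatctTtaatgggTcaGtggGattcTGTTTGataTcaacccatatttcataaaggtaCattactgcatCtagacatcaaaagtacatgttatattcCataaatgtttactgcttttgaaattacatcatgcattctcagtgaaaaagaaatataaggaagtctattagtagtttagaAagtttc
Zfp982 intron, chr4:147509722-147510011, + strand: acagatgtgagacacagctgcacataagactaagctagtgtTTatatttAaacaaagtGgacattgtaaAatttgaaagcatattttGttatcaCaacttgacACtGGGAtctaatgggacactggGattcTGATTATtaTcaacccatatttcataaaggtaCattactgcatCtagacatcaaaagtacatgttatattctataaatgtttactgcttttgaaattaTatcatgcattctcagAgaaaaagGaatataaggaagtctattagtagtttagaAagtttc

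Family 7 lay at processed pseudogenes of Smarca5, the gene for the ATPase of ISWI chromatin remodelling complexes. Its only copy outside the stretch was the Smarca5 gene itself, and the first sequence is the 226 bases of chromosome 8 before the annotated Smarca5 start, in the direction of that gene. Among the copies whose aligned bases lie outside annotated exons, the most alike, at the pseudogene Gm13135, had 10 substituted bases in 225. The least alike of these copies, at Gm13136, had 10 substituted bases and lacked 8.
Smarca5, chr8:80739498-80739723, - strand: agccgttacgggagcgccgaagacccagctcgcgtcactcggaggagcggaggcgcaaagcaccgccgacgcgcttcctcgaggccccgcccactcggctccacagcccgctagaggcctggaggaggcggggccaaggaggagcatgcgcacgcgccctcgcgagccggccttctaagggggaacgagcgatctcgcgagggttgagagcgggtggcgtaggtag
Gm13135, chr4:147275353-147275577, + strand: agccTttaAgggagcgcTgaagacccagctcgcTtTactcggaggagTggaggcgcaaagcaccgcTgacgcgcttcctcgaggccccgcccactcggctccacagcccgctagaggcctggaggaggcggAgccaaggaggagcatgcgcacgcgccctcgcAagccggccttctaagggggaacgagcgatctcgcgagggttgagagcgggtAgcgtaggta
Gm13136, chr4:147739009-147739225, - strand: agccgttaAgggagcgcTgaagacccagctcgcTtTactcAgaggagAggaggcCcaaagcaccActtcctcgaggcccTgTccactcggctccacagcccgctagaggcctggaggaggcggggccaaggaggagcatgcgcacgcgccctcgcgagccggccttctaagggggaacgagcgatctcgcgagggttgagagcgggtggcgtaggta

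The stretch fell into 2 parts. The first 0.591 Mb held 88 members and ordinary single-copy genes, among them Vps13d (a lipid transfer protein), Tnfrsf1b (a receptor for tumour necrosis factor) and Tnfrsf8 (CD30). The zinc finger part, taken from 20 kb before the first zinc finger gene, was 2.31 Mb long and held 347 members. The cut between the parts was not a sharp boundary, as 11 of the 88 members before it belonged to families. Among these were peaks of families 5, 7 and 6 at 54.9, 46.8 and 40.8 kb upstream of Zfp990. The stretch as a whole carried 25 protein-coding genes and 59 annotated pseudogenes. The zinc finger part also held all 6 unsequenced gaps of the reference, which made up 18.7% of that part, the longest being chr4:145899976-146049975 (150 kb) and chr4:146293476-146425246 (131.8 kb). No member can be listed in a gap.

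The longest pair of copies within the stretch was 39.4 kb at 99.9% identity (chr4:146802334-146841695 and chr4:146977678-147016993). Aligned with itself, the stretch gave 243 pairs of copies of 5 kb or more at 90% identity or more, 176 in the same orientation and 67 inverted, with a median identity of 96.9%. These covered 60.4% of its known bases, 77.7% in the zinc finger part and 5.15% in the part before it. To ask where a read of the sequenced length of 75 bases can be placed, every 75-base word was counted on both strands of the 21 assembled chromosomes. Of the known bases, 64.5% lay in at least 1 word that occurs once, 53.7% in the zinc finger part and 98.6% in the part before it. The words were matched exactly and singly, while the reads came in pairs, so this share is not the share that was mappable.

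Members lay mostly in sequence with unique words. Of the uniquely readable bases of the zinc finger part 20.3% lay in peaks, and of its other known bases 3.60% did. Of the bases within members 88.9% were in unique words, beside 99.6% over the 6739 other peaks of chromosome 4. Only 3 members held no unique base, and 24 members (5.52%) were unique over less than 50% of their bases. How the authors treated reads with several equally good places is not given in the sources used here, and the part that mapping has in the positions of peaks was not tested.

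Peaks came in runs separated by empty intervals. The median distance between neighbouring centres was 2888 bp (interval 2485 to 3485 bp, 434 distances), and the shortest was 261 bp. In 71 cases (16.4%) the distance was under 1 kb. In 9 cases it was over 50 kb. Of these 9 intervals 4 spanned unsequenced bases and 5 did not, the longest of the latter being 63.7 kb. The known sequence in these 9 intervals was unique over 6.06% to 44.3% of its bases. Over the 19 bins of 100 kb in the zinc finger part with at least 50 kb of known sequence, peaks per known 100 kb and the unique share had a Spearman rho of 0.79 and a Pearson r of 0.73, and over all 25 such bins rho was 0.35 and r was 0.42. These coefficients are descriptions over bins of 1 list that share their reference and neighbours. The 10 bins that were unique over less than 50% of their bases held a median of 10.4 peaks per known 100 kb (range 1.71 to 40), and the other 15 held a median of 21 (range 10 to 38.8). The highest count in a bin, 40 peaks, was in chr4:147300000-147399999, around Zfp988 and Zfp978, although only 47.7% of that bin was unique.

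**Figure D1:**
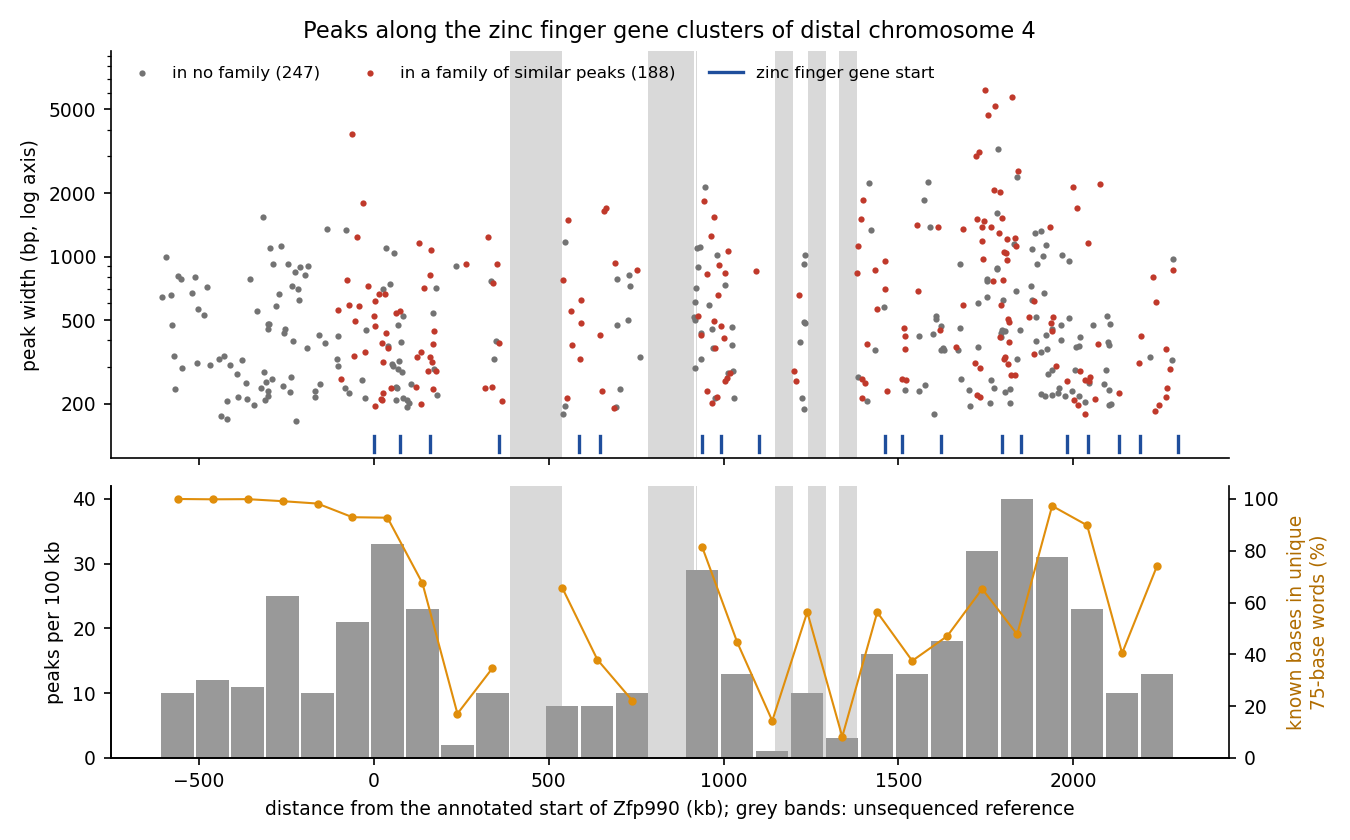
Width of each of the 435 peaks in bp on a log axis (top) and peaks per 100 kb with the percent of known bases in unique 75-base words (bottom), against distance in kb from the annotated start of Zfp990. Red points are the 188 peaks that belong to a family of similar peaks, blue ticks are the starts of 19 zinc finger genes, and grey bands are unsequenced reference. The 11 of 17 peaks of 2 kb or more that share a block of 200 kb stand out on the right, and the 40 peaks of the highest bar fall where 47.7% of known bases are unique.

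Members had ordinary widths with a few broad exceptions. The median width was 436 bp (interval 393 to 473 bp), beside 472 bp for the other peaks of chromosome 4, 692 bp for 398 peaks in other clusters of Zfp genes and 447 bp for all 113302 other peaks. The narrowest member was 166 bp, chr4:145287576-145287741 in an intron of Tnfrsf8. The widest was 6202 bp, chr4:147254889-147261090, with its centre in an intron of the transcribed pseudogene Gm13147, followed by 5716 bp at chr4:147333213-147338928 at the 3′ end of Zfp988 and 5166 bp at chr4:147284760-147289925. Members of 2 kb or more numbered 17 (3.91%, interval 2.45% to 6.17%), beside 0.861% of the other peaks of chromosome 4 and 0.251% of peaks in other Zfp clusters. Of these 17, 11 fell among the 72 members of chr4:147200000-147399999, a block that was singled out after the widths were seen. There 15.3% of members were that wide, and outside it 6 of 363 (1.65%) were. That block held 28.5% of all bases in members. Of the 17 wide members 12 belonged to families, and their unique share ranged from 60.6% to 100%.

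Zinc finger genes started in peaks in some cases and not in others. The stretch held 19 protein-coding zinc finger genes, 16 on the + strand and 3 on the - strand, with 2 to 20 fingers by a search of their longest coding sequence for the finger pattern. The median step between neighbouring starts was 98.2 kb, and 18 of the 19 starts were within the stretch. A peak covered 8 of the 18 starts. These were Zfp990 (peak of 521 bp), Zfp980 (818 bp), Zfp981 (468 bp), Zfp989 (953 bp), Zfp988 (1530 bp), Zfp982 (256 bp), Zfp985 (1160 bp) and Zfp534 (422 bp). All 8 peaks belonged to family 1.

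The other 10 starts lay outside peaks. The nearest peak was 5 bp away at Gm13212, 159 bp at Zfp979, 372 bp at Rex2 and 667 bp at Zfp991. It was 1208 bp away at Zfp986, 1750 bp at Zfp992, 1775 bp at Zfp600, 2288 bp at Zfp978, 4076 bp at Zfp987 and 6252 bp at Zfp993. The nearest peaks of Gm13212, Zfp979 and Rex2 also belonged to family 1. The 1000 bp around the 8 covered starts were unique over a median of 99.7% of their bases (57.9% to 100%), and those around the other 10 over a median of 38.9% (7.80% to 99%). Among the 10 only Gm13212 (99%) and Zfp992 (96.8%) were above 95%, and among the 8 this held for 5. Zfp984 started 9.79 kb beyond the stretch, in a peak of 1143 bp that was not a member. Zfp986 ended at the base before the longest gap and Zfp993 ended 253 bp from another gap.

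Peaks within the genes were unevenly shared. Zfp988 had 19 members between its ends, Zfp980 and Zfp981 had 12 each, Zfp990 had 10 and Gm13212 had 9. Zfp993 had 0 and Zfp534 had 1. The last exon, which encodes the fingers in genes of this kind, overlapped a member in 8 of 19 genes, with 3 at Zfp990, 2 at Zfp988 and 1 each at Zfp600, Zfp992, Zfp981, Zfp978, Zfp985 and Zfp979. Of the 435 members 262 (60.2%) had their centre in an intron, 79 (18.2%) between genes, 20 (4.60%) in an exon and 74 (17.0%, interval 13.8% to 20.8%) no more than 1 kb from the start site (TSS) of an annotated transcript. Of these 74, 43 were at the start of a pseudogene, 25 at a protein-coding gene and 6 at another transcript. The share within 1 kb of a TSS was 21.5% for other peaks of chromosome 4 and 50.3% in other Zfp clusters.

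Similar sequence linked a large part of the members. In all, 188 members (43.2%, interval 38.6% to 47.9%) had at least 1 other member as a match, and they formed 50 families, 20 of them with 3 or more members and 30 pairs. Of the 188, 177 were in the zinc finger part (51.0% of its members) and 11 in the part before it. Members in families had a median width of 491 bp (418 to 588 bp), and those in none had 398 bp (365 to 451 bp). Families were linked through any shared member, so a wide peak can join peaks that do not match each other. The grouping depended on its limits. At 95% identity 24.4% of members had a match and the largest family had 7 members in place of 23, at 80% identity it had 59, and with 50% of the shorter peak aligned it had 53. For all peaks of the genome a simpler measure was available, the share of a peak's 31-base words that recur in another peak within 2.9 Mb. At least 50% of words recurred for 49 members (11.3%, interval 8.63% to 14.6%), beside 0.148% of other peaks of chromosome 4, 0.251% of peaks in other Zfp clusters and 0.330% of all other peaks. Among 783 other windows of 2.9 Mb with enough peaks, 7 had a share as high or higher, up to 18.7%, so the stretch was not alone in this.

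Of the 10 families with 5 or more members most took recurring places along the gene units, and family 9 was spread from 6.68 to 106.8 kb from the nearest start, although 2 of its 5 members lay 6.68 kb upstream of Zfp993 and 6.98 kb upstream of Zfp991. Distances are given from the nearest of the 19 gene starts, in the direction of transcription, together with the starts of Gm21411, a protein-coding gene, and the pseudogene Gm13147, which were added after family 1 peaks were seen there.

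Family 1, with 23 members, lay at gene starts and at a second site a few kb further on. Of its members 13 lay within 1 kb of a start and 7 lay 3.65 to 4.78 kb downstream of one, at Zfp990, Zfp980, Zfp987, Zfp988, Zfp534, Gm21411 and Gm13147. Both counts include peaks at Gm21411 and Gm13147, which fit by the choice of those added starts. Within the first group 35 of 78 pairs matched directly and within the second 15 of 21, but only 1 of 91 pairs between the groups did. In the second group the Zfp990 peak was also 28 bp from the start of another annotated transcript of that gene, and the other 6 were 3653 to 4781 bp from any annotated start. The remaining 3 members were 4.86 kb upstream of Zfp986, 13.1 kb into Zfp981 and 34.2 kb into Zfp984, and the last 2 were 220 bp and 260 bp from the start of another transcript of these genes.

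Families 4 and 3, and 3 of 5 members of family 10, followed within the genes. Family 4 had 10 members, 7 of them 1.35 to 2.88 kb downstream of a start, 1 at 3.66 kb in Gm21411 and 2 at 10.3 and 11.4 kb in Zfp981. Family 3 had 11 members, all downstream of a start when the added starts of Gm21411 and Gm13147 are used, at 1.40 to 7.52 kb with a median of 6.12 kb. Family 10 had 5 members, of which those of Zfp600, Rex2 and Zfp988 lay at 7.08, 7.08 and 8.47 kb. The other 2 were 39.5 kb upstream of Zfp982 and 35.2 kb downstream of the Zfp984 start, the latter 1288 bp from another annotated start of that gene. In Zfp980 the order was therefore a start peak, a family 4 peak at 1.58 kb, a family 1 peak at 3.65 kb and a family 3 peak at 6.19 kb, and the pseudogene Gm13147 had family 4 at 2.20 kb, family 1 at 4.03 kb and family 3 at 5.23 kb. Zfp988 had family 1 at 4.78 kb and family 3 at 6.18 and 7.52 kb. No family 4 member was there, although 168 of the 267 bases of a copy of the family 4 sequence (chr4:147309319-147309585) lay in a peak.

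Family 2, with 17 members, lay mostly at the other end of the genes. Of its members 13 were 15.6 to 28.0 kb downstream of a start, as at Zfp990 (22.9, 23.8, 26.1 and 27.6 kb), Zfp988 (21.05 and 25.7 kb) and Zfp982 (16.8 and 19.7 kb). The 13 include peaks placed there only by the added starts of Gm21411 and Gm13147. The other 4 were 62.1 kb upstream of Zfp990, 38.8 kb upstream of Zfp986, 46.8 kb upstream of Zfp987 and 53.1 kb downstream of the Zfp984 start. The last of these would be nearer to the other Zfp984 transcript start named for family 1. Family 2 was the most AT-rich of the 10, with a median GC content of 34.4%, and 12 of its 17 peaks held the SOX word CATTGT at any place in the peak, as did 33.8% of all members. The word was also in 4 of 5 members of family 8, 3 of 7 of family 6, 2 of 5 of family 9 and 6 of 23 of family 1. It was in 1 member each of families 3, 4 and 5 and in none of families 7 and 10. Only 2 other members covered the family 2 representative directly, so family 2 rests largely on chains of partial matches. It also held the widest member of all.

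Families 5 to 8 lay upstream of the genes, in an order that recurred, apart from 1 member of family 5 and 2 of family 6 whose side depends on the start used. Family 7 had 6 members, each at a processed pseudogene of the Smarca5 type (Smarca5-ps, Gm13231, Gm13034, Gm13140, Gm13135 and Gm13136). They lay 30.0 kb upstream of Zfp980, 29.8 kb upstream of Zfp987, 29.5 kb upstream of Zfp989 and 30.3 kb upstream of Zfp988, and farther out at Zfp534 (36.3 kb) and Zfp990 (46.8 kb). Thus 4 of 6 distances were between 29.5 and 30.3 kb. Family 6, also at processed pseudogenes (Gm13229, Gm13249, Gm13035, Gm13149, Gm13163 and Gm13144), followed family 7 by 5.99 to 7.07 kb in all 5 units that had both. Its other 2 members, both near Gm13163, were 35.2 and 33.9 kb upstream of the Gm13147 start, but 63.1 and 64.4 kb downstream of Zfp991 when only the 19 zinc finger genes were used. Family 8 came nearest to the genes, 17.2 kb upstream of Zfp990 and Zfp980, 18.3 kb upstream of Zfp988, 20.4 kb upstream of Zfp987 and 22.8 kb upstream of Zfp985. The step from family 7 to family 8 varied more, from 9.46 to 29.6 kb in 4 units. Family 5 lay 54.9 kb upstream of Zfp990, 36.8 and 38.3 kb upstream of Zfp980, 33.5 kb upstream of Zfp987, 25.4 kb upstream of Zfp981, and 42.4 and 43.5 kb upstream of Zfp534. Its remaining member was 37.6 kb downstream of the nearest start, that of Gm13147, and upstream of Zfp988 when only the 19 zinc finger genes were used. The step from family 5 to family 7 was 3.64 to 8.16 kb in 4 units.

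Families 7 and 9, both at processed pseudogenes, were richer in GC and CpG than the members as a whole. Median GC content was 61.6% in family 7 and 61.7% in family 9, beside 43.0% over all members, and masked repeat made up a median of 4.23% and 2.56% of their bases. The ratio of observed to expected CpG was 0.929 and 0.577, beside 0.139 over all members. Not all pseudogene families shared this, as family 6 had a median GC content of 50.6% and a CpG ratio of 0.177. The pair of family 33, at the starts of Gm13238 and Gm13241, had 61.8% and 0.827. Family 7 peaks were 798 to 1488 bp wide and family 9 peaks 858 to 1387 bp. Of the 28 members with a GC content of 55% or more, 10 came from these 2 families, which had 11 members between them. Family 9 lay 30 to 196 bp from the starts of the processed pseudogenes Gm13243, Gm13168, Gm13240, Gm13162 and Gm13161. The family 7 representative matched Smarca5 over chr8:80738922-80739723 at 91.5% identity, a segment that reaches 226 bp before the Smarca5 start. All 802 bases of that segment were in a peak as well. The word GGGCGG, bound by SP and KLF factors, was found at any place in the peak in 12.4% of all members, in all 6 members of family 7 and all 5 of family 9, in 9 of 23 of family 1, 3 of 7 of family 6 and 1 of 8 of family 5, and in none of families 2, 3, 4, 8 and 10.

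Most copies of the family sequences held no peak in the list, from which the study's methods describe the removal of blacklisted regions and of peaks also called in input samples. Which places this emptied was not tested. The representatives of the 20 families with 3 or more members were searched in the whole genome for copies of at least 80% of their length at 90% identity or more. The stretch held 218 copies, of which 85 overlapped a peak by at least 1 base (39.0%). These counts include the 20 representatives, which hold a peak by construction. Of the other 198 copies 65 overlapped a peak (32.8%, interval 26.7% to 39.6%). Families were built from peaks, so further copies with a peak were given by the grouping, and the share is a description. Without the representatives, families 7 and 9 had no empty copy, with 5 of 5 and 4 of 4. In family 1 10 of 14 copies held a peak, in family 3 5 of 15, in family 2 2 of 12, in family 4 6 of 23 and in family 10 5 of 22. Some overlaps were small, such as 35 of 251 and 30 of 253 bases in family 1 and 1 of 263 bases in family 4. Empty copies were unique over a median of 49.5% of their bases, and other copies with a peak over 97.4%. Among other copies that were unique over at least 75% of their bases 45 of 91 held a peak (49.5%, interval 39.4% to 59.5%). Among those unique over less than 25% of their bases 3 of 53 held one (5.66%, interval 1.94% to 15.4%).

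**Figure D2:**
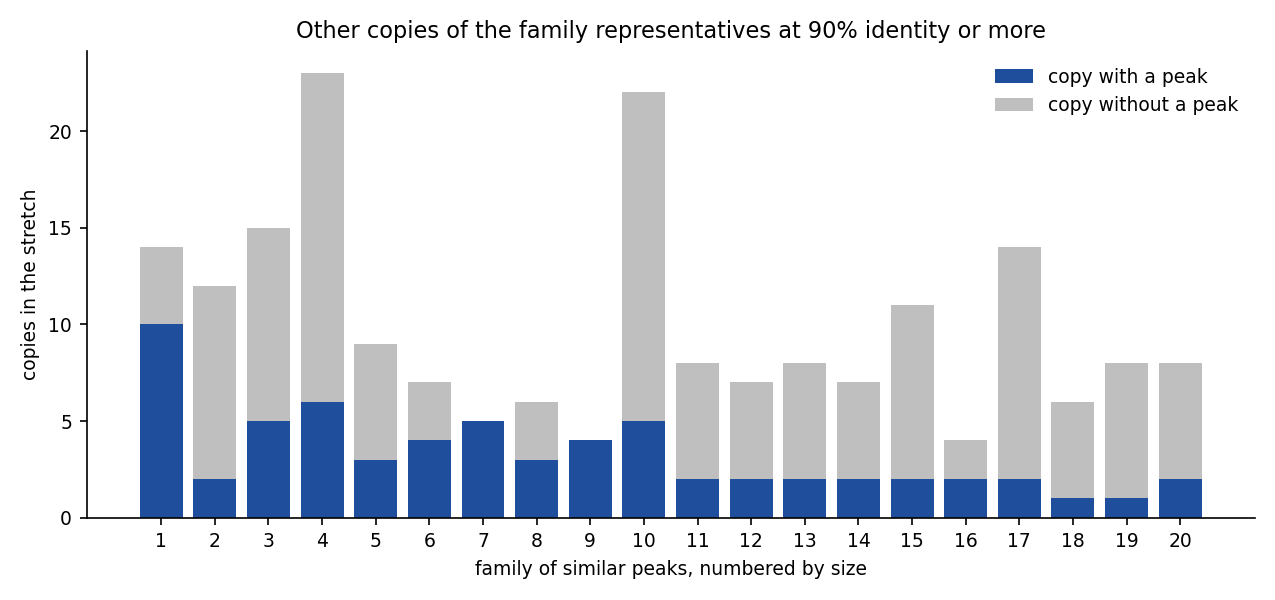
Number of other copies of each family representative in the stretch, at 90% identity or more over at least 80% of its length and without the representative itself, for the 20 families with 3 or more members. Blue is copies that overlap a peak (65 in all) and grey is copies that do not (133), and families 7 and 9 are blue throughout.

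The family sequences were local. For 15 of 20 families no copy was found outside the stretch, and the others but family 5 had 4 copies outside in all. These were Smarca5 on chromosome 8, the pseudogene Gm45499 on chromosome 7 (91.0% identity to family 6, without a peak) and 1 copy each of families 4 and 10 beyond the last edge, at chr4:147806238-147806504 and chr4:147805768-147805973, neither with a peak. Family 5 was the exception. Its representative was 93.9% masked as repeat and had 760 copies elsewhere in the genome, of which 53 overlapped a peak (6.97%). Of its 9 other copies in the stretch 3 did.

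Positions were shared between duplicated segments to a limited degree. Of the 435 members 196 (45.1%) lay whole within a copy of 5 kb or more, and each was carried through the alignment to its other places, 666 in all, with a median of 3 and up to 12 per member. A peak lay at 174 of these places (26.1%), and 87 of the 196 members (44.4%, interval 37.6% to 51.4%) had a peak at 1 place or more. With shorter copies of 2 kb or more this share was 57.3%, and with copies of 10 kb or more 33.3%. The share of places with a peak was 38.4% at 90% to 95% identity (73 of 190), 26.7% at 95% to 97%, 20.7% at 97% to 98%, 22.4% at 98% to 99% and 9.23% at 99% to 100% (6 of 65), and 6 of the 30 places under 90% held one. It was 3.30% at places unique over less than 25% of their bases (6 of 182), 16.7% at 25% to 50% (19 of 114), 41.1% at 50% to 75% (58 of 141) and 38.9% at fully unique places (35 of 90).

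A share per peak is raised by the width and number of peaks, so single bases were compared as well. For a base in a peak, the aligned base of the other copy was in a peak in 18.3% of 502532 pairs, and for a base outside peaks in 9.19%. Where both bases were in unique words these values were 27.5% and 17.3%, a ratio of 1.59. In most pairs, the partner of a base in a peak thus lay outside the peaks of the list. A base can have several partners, and the share of bases with none in a peak was not computed. Bases of a peak are not independent of each other, and no test was made.

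**Figure D3:**
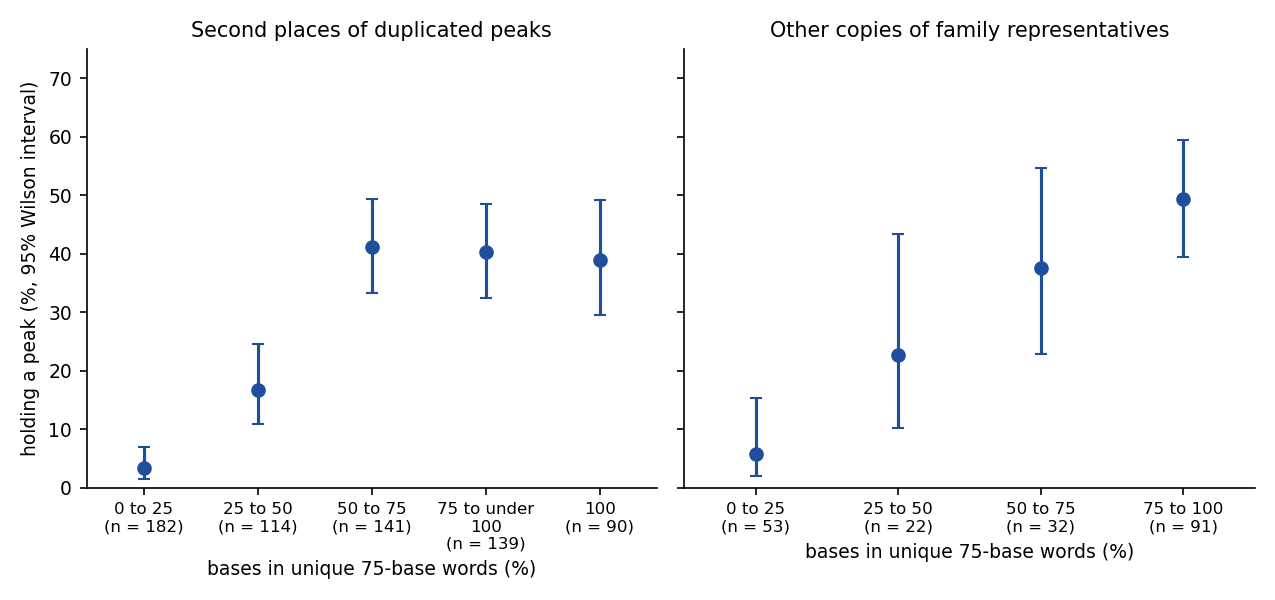
Percent of places that hold a peak, against the percent of their bases in unique 75-base words, for the places that duplicated peaks are carried to (left) and for copies of the family representatives other than the representatives themselves (right). Points are shares, bars are 95% Wilson intervals and n is the number of places. Shares are 3.30% and 5.66% in the lowest classes and 38.9% and 49.5% in the highest.

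Repeat content was high among members but lower than in the sequence around them. Lower-case bases of the reference, which mark interspersed and simple repeats, made up 29.6% of bases in members and 36.9% of known bases in the stretch, beside 17.0% in other peaks of chromosome 4, 15.3% in other Zfp clusters and 18.1% in all other peaks. At least 50% of the bases were masked in 88 members (20.2%, interval 16.7% to 24.3%), beside 11.2% of other peaks of chromosome 4, 8.29% in other Zfp clusters and 11.6% in other dense runs of distal peaks. Of these 88 members 79 were in the zinc finger part and 37 in a family, and 6 were at a TSS. At the other end 44 members (10.1%) held no masked base.

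**Figure D4:**
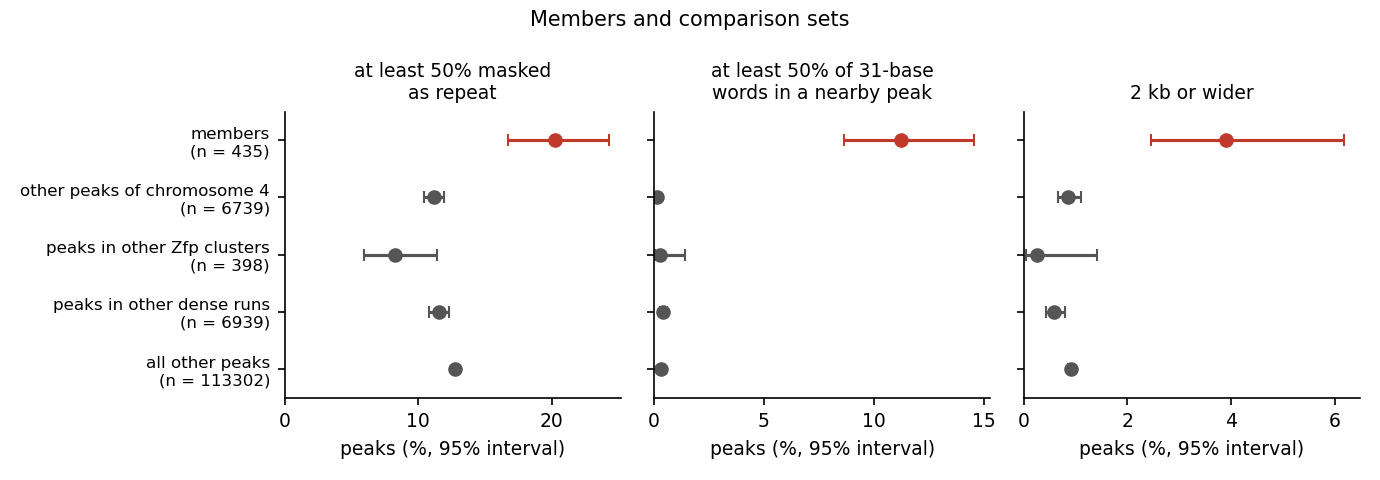
Percent of peaks that are at least 50% masked, that have at least 50% of their 31-base words in another peak within 2.9 Mb, and that are 2 kb or wider, for the members (red, n = 435) and 4 comparison sets. Points are shares and bars are 95% Wilson intervals. The members are at 20.2%, 11.3% and 3.91%.

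Base composition and short words also set members beside other peaks. Median GC content was 43.0% in members, 50.8% in other peaks of chromosome 4 and 51.6% in other Zfp clusters. Words were searched on both strands, without mismatch, in the 300 bases around each peak centre, and hits of different words could overlap. The octamer ATTTGCAT, bound by OCT factors, was in 8 members (1.84%) and 1.84% of all other peaks. The SOX word CATTGT was in 21.1% (interval 17.6% to 25.2%) of members and 16.9% of other peaks, and CCAAT, bound by NF-Y, in 42.8% (38.2% to 47.5%) and 32.7%. GGGCGG was in 8.51% (6.23% to 11.5%) and 18.6%, and GCCATNTT, bound by YY1, in 4.60% and 5.97%. Over whole peaks CCAAT was in 57.5% of members. It was in 10 of 11 members of family 3, 16 of 23 of family 1, 6 of 7 of family 6 and 5 of 5 of families 8 and 9 each, and in 10 of 17 of family 2, 4 of 10 of family 4, 3 of 8 of family 5, 1 of 6 of family 7 and 0 of 5 of family 10. Members of a family share their sequence by construction, so these counts are not independent, and a word in a window is not evidence of binding.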

How the data were processed

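ATAC-seq was made from 54 samples in 24 groups. The authors deposited 1 list of merged peak positions with no score, count or sample column, which belongs to no sample. Per the methods, reads were aligned to GRCm38 (mm10) with STAR 2.6.1c, duplicates were removed with Picard, peaks were called on paired ends with MACS2 2.1.1.20160309 and merged with BEDTools. The methods also describe the removal of peaks over 5 kb, of those overlapping peaks of input samples and of blacklisted ones. Whether peaks were called per library, and how reads with several places were handled, is not given in the sources used here. Depth is unknown.

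Peaks were read into Python 3.11.15 (numpy 2.4.6, scipy 1.17.1, matplotlib 3.10.9), annotated with GENCODE M21 and compared with the RefSeq GRCm38 genome, whose lower-case bases served as repeat mask. Similar peaks, self-alignments and copies came from blastn 2.17.0 with an e-value of 1e-10. Zinc finger genes were protein-coding genes with a Zfp symbol or at least 3 fingers. Other Zfp clusters had at least 6 Zfp genes with steps up to 300 kb, and dense runs at least 10 distal peaks with steps up to 12.5 kb. Shares have Wilson intervals and medians order-statistic intervals. Named members are the widest, the narrowest, those at the edges and those of families with 5 or more members. Members and lists were chosen with earlier results of these data known. The scripts were tested on simulated data. The sequences of family 3 are not reported here.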

Additional observations from a re-analysis of the deposited data

How the results depend on the processing

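Of 13 results recomputed under 42 alternatives in all, 21 values stayed within the interval or within 1.5 times the count, 21 moved, and 4 results had no move. For shares of bases the interval treated the 435 members as the units, so there it is a yardstick and measures no spread. Spacing was 2105.5 bp from edge to edge. The share near a TSS was 13.1% within 500 bp, 31.0% within 2500 bp and 5.29% for protein-coding transcripts. Members masked over 30% and 70% of bases made up 37.2% and 9.89%. A similar member was found for 54.7% at 80% identity, 24.4% at 95% identity, 53.1% at an aligned share of 50% and 37.0% at 95%. The largest family then had 59, 7 and 53 members under the first 3 of these, and 95% identity left 13 families of 3 or more. Self-alignments of 2 kb or more and of 10 kb or more covered 69.2% and 49.1% of the stretch, with a peak at another place for 57.3% and 33.3% of the members lying in such copies. Of the 196 members in copies of 5 kb or more this was 44.4%, and 34.7% when 50% of the carried peak had to be covered. Words of 36 and 100 bases made 69.1% and 93.9% of member bases unique. These settings change the definition measured. The share of copies with a peak was 35.8% when 50% of the copy had to lie in peaks and 32.8% without the representatives themselves, the latter an alternative chosen after seeing the data.

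No paired analysis was possible because the deposited list belongs to no sample. The reference is of C57BL/6J mice, the strain of the line is not in the labels, and copy number in its genome was not measured. The list held 11 regions over 5 kb, 3 of them members, although the study's methods describe their removal. Unplaced scaffolds were not searched.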
